A study of Mus musculus with 18 samples.

Results

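The integrins and laminins were taken as every row of the count table whose gene name is an integrin alpha or beta chain with a number, Itgae, Itgal, Itgam, Itgav, Itgax or Itga2b, or a laminin alpha, beta or gamma chain with a single digit. The rule found 37 rows of 52636 genes, 26 integrin rows and 11 laminin rows, under 36 symbols. Itgam stands for 2 of these rows, ENSMUSG00000030786 and ENSMUSG00000108596. The annotated spans of both overlap on chromosome 7 (GRCm38, 128062640 to 128118491 and 128062683 to 128128160), so how reads were split between them is uncertain. RNA-Seq was carried out on epidermal cells of C57BL/6 mice sorted as positive for EpCAM and negative for CD45, CD140a and CD31, although one label gives whole skin as the source. Control mice carried loxP-flanked Zfp36 without Cre (fl/fl), and their littermates carried the same floxed alleles plus a Cre driven by the human keratin 14 promoter (ΔK14, named ΔEP by the study), which acts in keratinocytes. Mock skin came from mock-treated animals, treated skin was nontumoral skin beside tumors after DMBA and TPA, and tumors were papillomas of the same protocol. In this protocol the mutagen DMBA initiates tumors and the phorbol ester TPA then drives their outgrowth. There were 3 columns of counts for each of the 6 groups. The labels used here give no age, and nothing in them says whether replicates came from separate animals, so the p-values measure the spread between these libraries.

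Integrins are pairs of an alpha and a beta chain that anchor cells to the extracellular matrix and signal across the membrane. Laminins are trimers of an alpha, a beta and a gamma chain laid down in basement membranes. Basal keratinocytes are held to the basement membrane by hemidesmosomes, in which the integrin of Itga6 and Itgb4 binds laminin-332, a trimer that includes the products of Lama3 and Lamb3. The integrins of Itgb1 with Itga3 or Itga2 are the other main receptors of these cells for laminin and collagen. Laminin-511, made of Lama5, Lamb1 and Lamc1, is the other main laminin of the epidermal basement membrane and of hair follicles. The integrins of Itgav and Itga5 bind matrix proteins with an RGD motif, those with Itgb6 or Itgb8 activate latent TGF-β, and the integrin of Itga5 and Itgb1 is the classic fibronectin receptor. Itgal, Itgam, Itgax and Itgb2 are chains of leukocytes, and Itga2b pairs with Itgb3 on platelets.

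Zfp36 encodes tristetraprolin, which binds AU-rich elements in 3′ untranslated regions of mRNAs and speeds their decay. The core heptamer TATTTAT was searched on the sense strand of 3′ untranslated regions, taking for every gene the longest one annotated in GENCODE M21 (GRCm38). It was found for 16 of 37 member rows (43.2%), against 5776 of 21062 genes (27.4%), with median lengths of 1274 bases for members and 1085 bases for all genes. The nonamer TTATTTATT, which contains the heptamer, was found for 2 members, Itga6 and Itga2. No test was made of these shares, and a match is a string and not evidence of binding. The matches below belong to some of the members with large differences between tumors and skin or between the genotypes of tumors. A single match is printed per gene, in transcript direction with the heptamer in capitals and 10 bases on each side. Itga2 held 2 matches and Itgb8 held 3. Lama1, with a large difference too, held 1 that is not printed.
Itga6 (chr2:71853783-71853809, plus strand): tgcttggattTATTTATttttgttatt
Itga2 (chr13:114835819-114835845, minus strand): ttgataatctTATTTATtaactaagtt
Itga3 (chr11:95045552-95045578, minus strand): ccttccttccTATTTATcataaattat
Itga5 (chr15:103344540-103344566, minus strand): cttagaaaccTATTTATccctgactta
Itgb8 (chr12:119160432-119160458, minus strand): tattttctacTATTTATtaagccatat
The longest annotated 3′ untranslated regions of Itgb1, Itgb4, Lama3, Lamb3, Lamb1 and Itgb6 held no such heptamer. The longest annotated region can belong to any coding transcript of a gene, and that of Itga5 is spliced, so its other heptamer (at 103353270 to 103353296), far upstream of the one printed, may not lie in the 3′ untranslated region of other transcripts.

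The columns of mock ΔK14 replicates 2 and 3 held identical counts in every gene and entered all fits as 1 library, so that group had n = 2 and the series 17 libraries. Totals ran from 2808550 to 9617985 counts. Values are CPM on TMM-scaled library sizes, a scale on which 1 gene can be compared between libraries. Zfp36 ranged from 152 to 716 CPM in fl/fl and from 10.1 to 38.6 CPM in ΔK14 libraries, with no overlap at any stage. The lowest total and the fewest genes with a count (19219, against up to 28145) were those of fl/fl tumor replicate 1, and replicate 1 of both mock genotypes stood apart from the other mock libraries. These libraries are named beside each result that rests on them. The sorted cells carried the epidermal markers in every library, with Epcam between 87.9 and 466 CPM and Krt5 between 1430 and 12100 CPM. The fibroblast markers Col1a1 (17.1 to 727 CPM) and Dcn (0.19 to 976 CPM) were detected too, 4 melanocyte markers summed to 8.85 to 325 CPM (at most 35.3 CPM in tumors), 5 endothelial markers to 8.62 to 39.7 CPM and 4 platelet markers to 0.812 to 11.9 CPM. The 3 smooth and skeletal muscle markers, mostly Acta2, summed to 4.25 to 38.6 CPM in skin and 35.1 to 70.9 CPM in tumors. The melanocyte sum was highest in mock replicate 1 of fl/fl (284 CPM) and ΔK14 (249 CPM) and in treated ΔK14 replicate 1 (325 CPM). Other skin libraries held 38.6 to 121 CPM. The same 3 libraries had the lowest sums of the 8 epidermal markers, at 3910, 3860 and 5030 CPM. In sorted bulk RNA a lower share of a cell type and less RNA per cell cannot be told apart.

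Levels of different genes were compared per kb of annotated exon. Among the members described here and averaged over the 17 libraries, Itgb1 was highest at 136 CPM per kb, followed by Itga6 at 103, Itgb4 at 71.7, Itga3 at 57.1, Lama3 at 52.1 and Lamb3 at 32.5 CPM per kb. Chains of the hemidesmosome, of laminin-332 and of the β1 laminin receptors thus came first. Itgav stood at 22.8 CPM per kb, Itga2 at 16.1, Lamc1 at 16.1, Lamb1 at 15.1, Lama5 at 14.8, Itga5 at 14.7 and Itgb5 at 14.5 CPM per kb. The ranges over libraries of all neighbors in this order overlapped, so the order is one of means only. The remaining 23 rows averaged at most 5.86 CPM per kb (Lamb2).

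The integrins of leukocytes and platelets were at a low level in every group. Their 10 rows (Itgae, Itgal, both Itgam rows, Itgax, Itgb2, Itgb7, Itga4, Itga2b and Itgb3) summed to 9.03 to 17.1 CPM in fl/fl tumors and 8.5 to 13.4 CPM in ΔK14 tumors. The sums were 9.09 to 15.3 CPM in fl/fl and 12.5 to 13.3 CPM in ΔK14 mock skin, and 10.1 to 19.1 CPM in treated skin of either genotype, so all groups overlapped. They made up 0.139% to 1.79% of all integrin counts of a library. Itgb2, the β chain shared by the leukocyte-specific integrins, never exceeded 6 counts, Itgal 6 counts and Itgax 7 counts in any library. Other rows reached more, with up to 13 counts for Itgae, 21 and 16 for the Itgam rows, 27 for Itgb7 and 41 for Itga4. Itgb7 had more than 3 counts in 16 libraries and Itga2b in all 17 libraries. Of 12 leukocyte markers, Ptprc (CD45, the antigen used to exclude leukocytes) reached at most 13 counts and was at 0 in 4 libraries. The summed level of the 12 markers ran from 11.9 to 179 CPM, most of it from Cd74 (5.33 to 172 CPM), with 61.2 to 90.8 CPM in ΔK14 tumors against 16.2 to 37.1 CPM in fl/fl tumors. Itga2b was the most abundant of the 10 rows per kb (0.667 CPM per kb), and the platelet marker Pf4 had at most 1 count in a library.

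**Figure D1:**
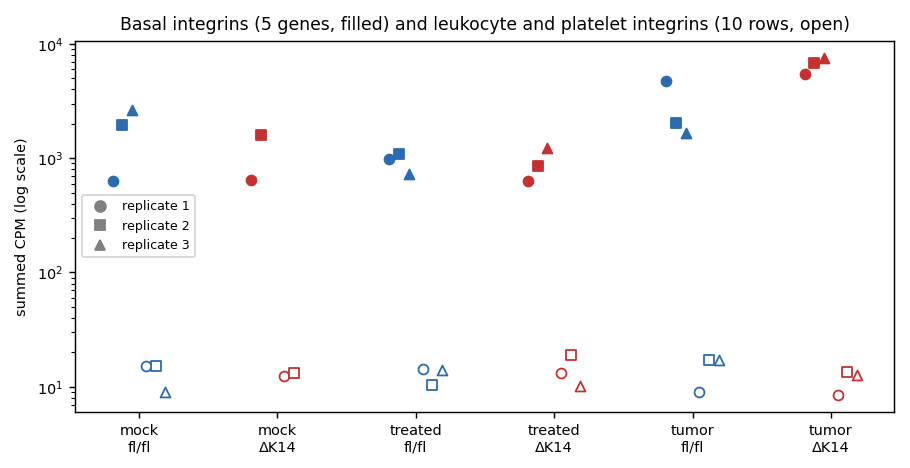
Summed CPM (log scale) of Itga6, Itgb4, Itga3, Itgb1 and Itga2 (filled) and of the 10 leukocyte and platelet integrin rows (open) in each library, with fl/fl in blue, ΔK14 in red and the marker shape giving the replicate. The filled symbols run from 628 to 7580 CPM and are highest in ΔK14 tumors (5450 to 7580 CPM), while the open symbols stay between 8.5 and 19.1 CPM in every group.

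The mock libraries split by replicate rather than by genotype. In 17 of the 25 members that passed the low-count filter between the mock groups, replicate 1 of both genotypes lay outside the range of the other 3 mock libraries, lower in 14 and higher in 3. The same held for 62% of all 15920 genes tested, lower in 5147 and higher in 4725. Itga6 was at 220, 1000 and 1310 CPM in the fl/fl libraries (replicates 1 to 3) and at 253 and 750 CPM in the ΔK14 libraries. Itgb4 was at 100, 425 and 585 CPM in fl/fl and at 92.3 and 371 CPM in ΔK14, and Lamb3 at 26.8, 228 and 349 CPM in fl/fl and at 22.7 and 189 CPM in ΔK14. Replicate 1 was lower in all of these. Lamb1 went the other way, with 222, 25.7 and 17.9 CPM in fl/fl and 226 and 14.8 CPM in ΔK14. Krt14, the basal keratin whose promoter drives the Cre, was also lower in replicate 1, at 604, 4980 and 4420 CPM in fl/fl and at 671 and 4230 CPM in ΔK14. Itga5 did not split (8.44, 10.8 and 9.57 CPM in fl/fl, 10.3 and 6.85 CPM in ΔK14).

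Tumors were compared with treated skin of the same genotype to ask how the adhesion genes differ between papilloma cells and the neighboring epidermis. A call needed both a fold change over 2 and an edgeR quasi-likelihood p below 0.05 after adjustment over all genes tested. In fl/fl mice 12 of 27 members tested were called, 9 higher and 3 lower in tumors, where 18% of all 15362 genes tested were called (7.5% higher, 10.5% lower). In ΔK14 mice 20 of 26 members were called, 15 higher and 5 lower, against 26% of 15289 genes (10.5% higher, 15.5% lower). All 3 tumors lay above all 3 treated libraries for 9 of 27 members in fl/fl (21.9% of all genes) and for 16 of 26 in ΔK14 (28.4% of all genes), and below them for 4 (24%) and 3 (23.8%). The median log2 difference of the members tested was 0.86 in fl/fl and 1.43 in ΔK14, and over all genes tested it was -0.02 and -0.03. Without fl/fl tumor replicate 1 the fl/fl count was 15 (24.3% of all genes). Leaving out treated fl/fl replicate 1 or 3 lowered it to 6 or 7 (7.21% or 9.91% of all genes). In ΔK14 the count stayed between 15 and 20 whichever library was left out (17.5% to 29.2% of all genes). The fl/fl calls of Itga2, Itga5, Itgb6, Lama2, Lama3 and Lamc3 were kept without any single library. Those of Itga6, Itgb1 and Lama1 were each lost without at least treated replicate 1.

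**Figure D2:**
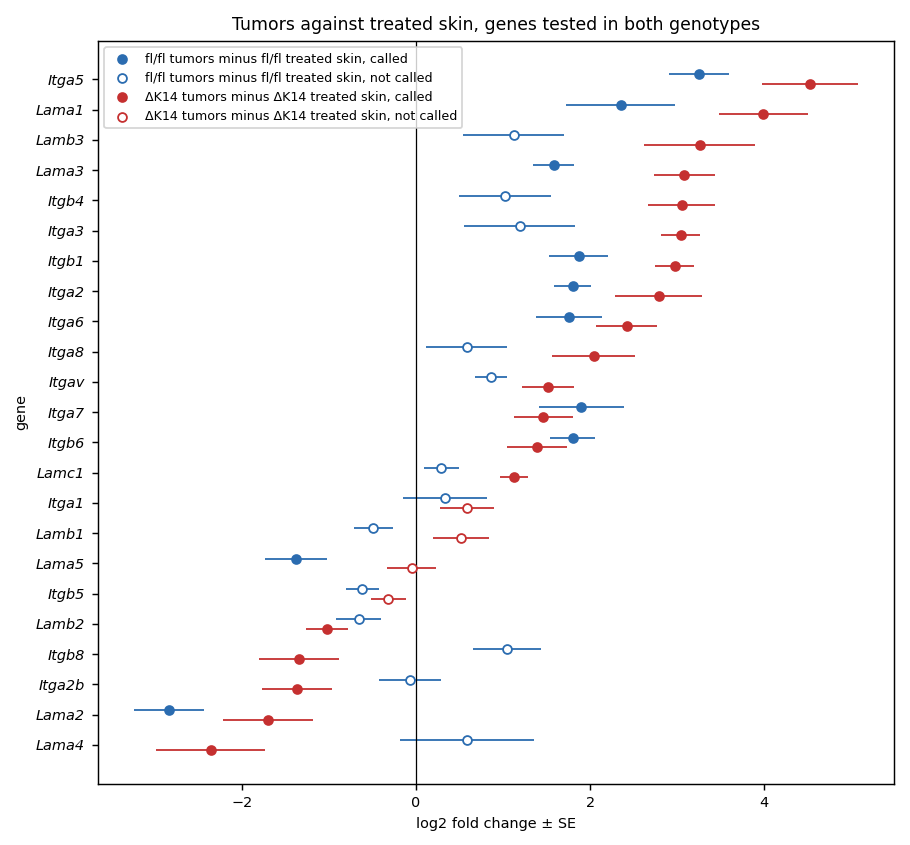
Log2 fold change with its standard error of tumors against treated skin for members tested in both genotypes, with fl/fl in blue, ΔK14 in red, filled symbols for called and open for uncalled differences. Lama3, Lamb3, the basal integrins and Itga5 lie to the right of 0 in both genotypes, from 1.02 (Itgb4, fl/fl, not called) to 4.53 (Itga5, ΔK14), while Lama2 lies to the left in both and Itgb8, Lama4 and Lamb1 lie on opposite sides in the 2 genotypes.

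Of the hemidesmosomal integrin chains, Itga6 rose in tumors of both genotypes and Itgb4 in ΔK14 tumors. Itga6 was at 360, 424 and 239 CPM in fl/fl treated skin and at 1880, 968 and 701 CPM in fl/fl tumors. For ΔK14 mice the values were 212, 341 and 600 CPM in treated skin and 2030, 2390 and 2110 CPM in tumors. Every tumor library lay above every treated library of its genotype, and Itga6 rose by 1.76 ± 0.38 (log2, SE; edgeR adjusted p = 0.016) in fl/fl and by 2.42 ± 0.35 (adjusted p = 0.00171) in ΔK14. Itgb4, its partner, was at 261, 296 and 167 CPM in fl/fl treated skin and at 998, 266 and 244 CPM in fl/fl tumors. In fl/fl mice only tumor replicate 1 exceeded the treated range, and the difference of 1.02 ± 0.53 was not called (edgeR adjusted p = 0.189). In ΔK14 mice Itgb4 was at 85.9, 139 and 260 CPM in treated skin and at 1110, 1370 and 1790 CPM in tumors. The groups did not overlap, and Itgb4 rose by 3.05 ± 0.39 (edgeR adjusted p = 0.00109). Fl/fl mock libraries, at 220 to 1310 CPM (Itga6) and 100 to 585 CPM (Itgb4), overlapped the fl/fl tumors.

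Of the β1 laminin and collagen receptor chains, Itgb1 and Itga2 rose in tumors of both genotypes and Itga3 in ΔK14 tumors. Itgb1 was at 184, 198 and 188 CPM in fl/fl treated skin and at 1140, 525 and 465 CPM in fl/fl tumors. In ΔK14 mice the values were 191, 201 and 211 CPM in treated skin and 1290, 1790 and 1980 CPM in tumors. The treated libraries of both genotypes lay within a narrow range and below all tumors, and Itgb1 rose by 1.87 ± 0.34 (edgeR adjusted p = 0.00889) in fl/fl and by 2.97 ± 0.22 (adjusted p = 0.000173) in ΔK14. Itga3, which pairs with Itgb1 to bind laminin-332, was at 132, 123 and 88.8 CPM in fl/fl treated skin and at 587, 144 and 78.7 CPM in fl/fl tumors, which overlapped (1.19 ± 0.64, edgeR adjusted p = 0.206). In ΔK14 mice Itga3 was at 123, 105 and 124 CPM in treated skin and at 836, 950 and 1300 CPM in tumors. It rose by 3.04 ± 0.22 (edgeR adjusted p = 0.000173), the smallest adjusted p among the members together with Itgb1. Itga2, the collagen-binding chain, was at 38.2, 42.1 and 42.8 CPM in fl/fl treated skin and at 134, 122 and 180 CPM in fl/fl tumors. In ΔK14 libraries the values were 16.3, 67.8 and 41.4 CPM in treated skin and 183, 360 and 403 CPM in tumors. Neither genotype overlapped, and Itga2 rose by 1.80 ± 0.21 (edgeR adjusted p = 0.00235) in fl/fl and by 2.79 ± 0.50 (adjusted p = 0.00388) in ΔK14. Fl/fl mock libraries lay below all fl/fl tumors for Itgb1 (184 to 270 CPM) and Itga2 (16.6 to 115 CPM). For Itga3 they overlapped the fl/fl tumors (110 to 348 CPM).

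Of the laminin-332 chains, Lama3 rose in tumors of both genotypes and Lamb3 in ΔK14 tumors. Lama3 was at 176, 197 and 206 CPM in fl/fl treated skin and at 796, 474 and 501 CPM in fl/fl tumors. The ΔK14 values were 133, 223 and 213 CPM in treated skin and 965, 2100 and 2100 CPM in tumors. It rose without overlap in both, by 1.58 ± 0.24 (edgeR adjusted p = 0.00492) and 3.08 ± 0.35 (adjusted p = 0.000716). Lamb3 was at 89.6, 125 and 41.6 CPM in fl/fl treated skin and at 369, 116 and 84.9 CPM in fl/fl tumors, where 2 of 3 tumors lay within the treated range (1.12 ± 0.58, edgeR adjusted p = 0.188). For ΔK14 mice the values were 17.9, 39.9 and 124 CPM in treated skin and 328, 720 and 787 CPM in tumors. The tumors lay above all treated libraries, and Lamb3 rose by 3.26 ± 0.64 (edgeR adjusted p = 0.00572). Fl/fl mock libraries, at 108 to 503 CPM (Lama3) and 26.8 to 349 CPM (Lamb3), overlapped the fl/fl tumors.

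Basal keratins moved in different directions. Krt14 was at 2360, 3360 and 1560 CPM in fl/fl treated skin and at 15700, 3870 and 4160 CPM in fl/fl tumors, and at 974, 2490 and 5330 CPM in ΔK14 treated skin and 11000, 11300 and 11500 CPM in ΔK14 tumors. Fl/fl tumor replicate 1, which held the highest Itga6, Itgb4, Itga3 and Itgb1 of the fl/fl tumors, also held the highest Krt14 and Krt5 (12100 CPM, against 2620 and 2810 CPM). Between tumors and treated skin Krt14 rose by 1.86 ± 0.51 in ΔK14 (edgeR adjusted p = 0.021), and its difference in fl/fl was 1.68 ± 0.58 (adjusted p = 0.0669). Krt15, another basal keratin, went the other way. It was at 353, 784 and 290 CPM in fl/fl treated skin and at 188, 87.8 and 124 CPM in fl/fl tumors, without overlap, and it fell by 1.86 on the log2 scale (SE 0.42, edgeR adjusted p = 0.0188). In ΔK14 mice Krt15 was at 147, 293 and 289 CPM in treated skin and at 208, 78.2 and 72.2 CPM in tumors, which overlapped (-1.11 ± 0.45, adjusted p = 0.0818). Against mock skin Krt15 fell by 3.14 in fl/fl (edgeR adjusted p = 0.0492) and by 3.64 in ΔK14 (adjusted p = 0.0431). Trp63, another basal marker, did not separate the stages (482 to 718 CPM in treated skin, 479 to 691 CPM in tumors). Of the other epidermal markers, Epcam rose against treated skin in both genotypes (1.42 in fl/fl and 1.24 in ΔK14). Krt5 rose in ΔK14 (1.71, edgeR adjusted p = 0.0105) and was not called in fl/fl (0.87). Krt10 fell in ΔK14 (-1.94, edgeR adjusted p = 0.0262) and was not called in fl/fl (-1.30). Krt1 and Cdh1 were called in neither genotype. The part of basal cell content in the integrin differences was not tested.

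**Figure D3:**
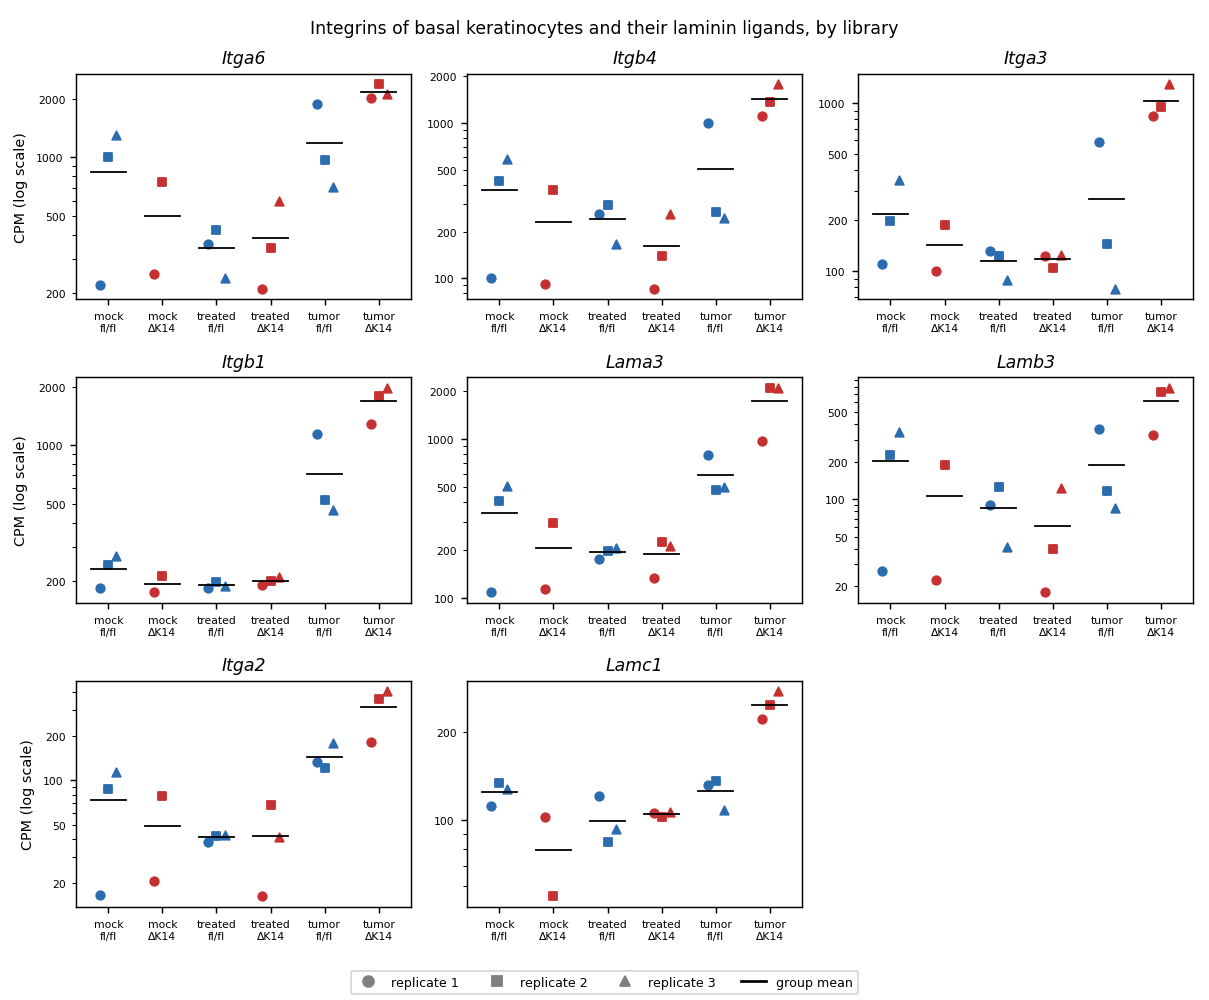
CPM (log scale) of the hemidesmosomal and β1 integrin chains, Lama3, Lamb3 and Lamc1 in each library, with the black line at the group mean. ΔK14 tumors hold the highest group mean in all 8 panels, fl/fl tumor replicate 1 (blue circle) lies nearest to them in 6, and mock replicate 1 (circles) lies low for 7 of the 8 genes.

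Among the RGD-binding integrins, Itga5 had the largest change. It was at 10.2, 8.11 and 10.6 CPM in fl/fl treated skin and at 54.2, 129 and 98.7 CPM in fl/fl tumors. In ΔK14 mice the values were 10.9, 13.8 and 8.62 CPM in treated skin and 94.6, 270 and 476 CPM in tumors. Skin libraries of all kinds lay between 6.85 and 13.8 CPM and no tumor overlapped them, with a rise of 3.25 ± 0.34 (edgeR adjusted p = 0.00176) in fl/fl and of 4.53 ± 0.55 (adjusted p = 0.000937) in ΔK14. Fn1, the fibronectin ligand of this receptor, fell in the same comparisons, by 3.80 and 3.17 on the log2 scale. Itgb6, an epithelial chain induced in healing and in tumors, was at 20.4, 21.3 and 11.4 CPM in fl/fl treated skin and at 69.2, 61.4 and 56.7 CPM in fl/fl tumors. In ΔK14 mice Itgb6 was at 13.5, 28.2 and 41.8 CPM in treated skin and at 69.8, 76.1 and 88.1 CPM in tumors. It rose by 1.80 ± 0.26 (edgeR adjusted p = 0.00438) in fl/fl and by 1.39 ± 0.34 (adjusted p = 0.014) in ΔK14.

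Itgav, the alpha chain that pairs with Itgb5, Itgb6 and Itgb8, was at 161, 167 and 136 CPM in fl/fl treated skin and at 270, 270 and 315 CPM in fl/fl tumors. In ΔK14 libraries the values were 88.6, 160 and 207 CPM in treated skin and 368, 532 and 496 CPM in tumors. The groups did not overlap in either genotype. The fl/fl difference of 0.86 ± 0.18 passed the adjusted p (0.0132, edgeR) but stayed under 2-fold, and in ΔK14 Itgav rose by 1.52 ± 0.30 (adjusted p = 0.00564). Itgb8 differed in direction between the genotypes. It was at 67.5, 65.3 and 49 CPM in fl/fl treated skin and at 53.7, 164 and 160 CPM in fl/fl tumors (1.04 ± 0.39, edgeR adjusted p = 0.0879). Its values in ΔK14 mice were 28, 81.9 and 109 CPM in treated skin and 41.1, 30.5 and 19.9 CPM in tumors, and it fell by 1.35 on the log2 scale (SE 0.46, edgeR adjusted p = 0.0496). Treated replicate 1 lay inside the range of the ΔK14 tumors. The call was lost on leaving out any 1 of 5 of the 6 libraries (all but treated replicate 1). Itga8, a low-level chain, was at 0.897, 2.48 and 1.18 CPM in ΔK14 treated skin and at 5.14, 5.45 and 10.4 CPM in ΔK14 tumors, and it rose by 2.04 (edgeR adjusted p = 0.0117). In fl/fl mice Itga8 ran from 1.32 to 3.01 CPM and from 2.51 to 4.92 CPM, which was not called. Itgb5 kept to a narrow range in all 17 libraries, from 31.1 to 69.3 CPM.

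The other laminin chains went in several directions. Lamc3, a γ chain of low level here, was at 4.34, 6.36 and 5.88 CPM in fl/fl treated skin, and fl/fl tumors held 2 counts in all, at most 1 per library. It fell without overlap (edgeR adjusted p = 0.00282), and the ratio of summed counts per depth, treated skin to tumors, was 30.9 with a 95% counting interval of 8.35 to 258. The same ratio in ΔK14 mice was 31.8 (5.4 to 1290), from 40 and 1 counts, too few for the test there. Lama2, the α chain of the muscle and stromal laminins, was at 7.93, 8.55 and 7.98 CPM in fl/fl treated skin and at 1, 1.53 and 0.656 CPM in fl/fl tumors. The ΔK14 values were 3.59, 7.44 and 2.37 CPM in treated skin and 1.12, 1.82 and 1.52 CPM in tumors. Lama2 fell by 2.84 (SE 0.40, edgeR adjusted p = 0.00363) and by 1.70 (SE 0.52, adjusted p = 0.0324) on the log2 scale. The call in ΔK14 was lost without any tumor library or treated replicate 2. The 7 fibroblast markers summed to 380 to 628 CPM in fl/fl treated skin against 83.3 to 199 CPM in fl/fl tumors, and to 433 to 957 CPM against 31.2 to 389 CPM in ΔK14, and of the 7 Lum alone was at 0, in 1 library. Most of that gap was Dcn, with means of 253 and 6.46 CPM in fl/fl and of 475 and 1.76 CPM in ΔK14, while Col1a1 averaged 119 and 116 CPM in ΔK14. Their part in the fall of Lama2 was not tested.

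Lama1, an α chain best known from embryonic basement membranes, was at 2.17, 9.21 and 2.35 CPM in fl/fl treated skin and at 37.1, 13.6 and 18 CPM in fl/fl tumors. For ΔK14 mice the values were 0.897, 3.92 and 6.42 CPM in treated skin and 49.9, 54.3 and 89.5 CPM in tumors. It rose by 2.35 ± 0.63 (edgeR adjusted p = 0.0308) and by 3.99 ± 0.51 (adjusted p = 0.00107), but mock libraries other than replicate 1 held 27.7 to 48.4 CPM, so the tumor level was not outside that of mock skin in fl/fl mice. Lama4, an α chain of vessel walls, was at 30.5, 32.9 and 17 CPM in fl/fl treated skin and at 2.51, 65.4 and 50.8 CPM in fl/fl tumors (0.58 ± 0.77, edgeR adjusted p = 0.602). In ΔK14 mice Lama4 was at 5.02, 25.2 and 33.6 CPM in treated skin and at 6.04, 2.72 and 4.56 CPM in tumors, and it fell by 2.36 (SE 0.63, edgeR adjusted p = 0.0187), with treated replicate 1 inside the tumor range. The call was lost without tumor replicate 2 or 3 or treated replicate 2. Of the endothelial markers, Pecam1 averaged 9.04 CPM in ΔK14 treated skin and 22.6 CPM in ΔK14 tumors. Cdh5 averaged 1.56 and 1.57 CPM, Tek 0.873 and 0.345 CPM, and Kdr 0.292 and 0.322 CPM. Emcn had at most 4 counts in a library. The part of endothelial cells in the fall of Lama4 was not tested.

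Of the laminin-511 chains, Lama5 fell in fl/fl tumors, Lamc1 rose in ΔK14 tumors and Lamb1 was called in neither. Lama5 was at 215, 148 and 179 CPM in fl/fl treated skin and at 111, 67.2 and 37.7 CPM in fl/fl tumors, and it fell by 1.38 on the log2 scale (SE 0.36, edgeR adjusted p = 0.0293). In ΔK14 mice the values were 282, 204 and 133 CPM in treated skin and 195, 184 and 261 CPM in tumors, which overlapped. The fl/fl call was lost when any treated library or tumor replicate 2 or 3 was left out. Lamb1 was at 163, 128 and 184 CPM in fl/fl treated skin and at 140, 95.4 and 110 CPM in fl/fl tumors, and at 226, 163 and 90.8 CPM in ΔK14 treated skin and 195, 256 and 292 CPM in ΔK14 tumors, with no call in either genotype. Lamc1 was at 121, 84.4 and 93.2 CPM in fl/fl treated skin and at 132, 136 and 108 CPM in fl/fl tumors, which overlapped. In ΔK14 mice Lamc1 was at 106, 103 and 107 CPM in treated skin and at 221, 247 and 274 CPM in tumors, and it rose by 1.13 ± 0.16 (edgeR adjusted p = 0.00156). Lamb2, a β chain of laminins such as those of vessels and nerve, fell by 1.02 in ΔK14 (edgeR adjusted p = 0.0113), from 29.8, 38.5 and 52.7 CPM to 19, 24.7 and 19.8 CPM, and ran from 31.5 to 43.2 CPM and from 17.7 to 32.8 CPM in fl/fl.

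Of the other chains, Itga7, a laminin-binding partner of Itgb1, was at 5.65, 8.55 and 4.58 CPM in fl/fl treated skin and at 8.53, 25.3 and 34.7 CPM in fl/fl tumors. In ΔK14 libraries the values were 4.67, 7.57 and 5.07 CPM in treated skin and 20.6, 11.3 and 19.9 CPM in tumors. It rose by 1.90 (edgeR adjusted p = 0.0281) in fl/fl, with tumor replicate 1 inside the treated range, and by 1.46 (adjusted p = 0.0105) in ΔK14. Itga2b fell by 1.37 in ΔK14 (edgeR adjusted p = 0.0253), from 5.56, 6.66 and 3.72 CPM to 1.57, 2 and 3.04 CPM. The Itga7 call in fl/fl was lost without any 1 library other than tumor replicate 1, the ΔK14 calls of Itga2b and Lamb2 each without any of 3 libraries, and those of Itga8 and Itgb6 without tumor replicate 3. Itga1, a collagen-binding partner of Itgb1, was called in neither genotype. Itga9, Itga10, Itgae, Itgax, Itgal, Itgb2 and both Itgam rows did not pass the low-count filter in either of these comparisons. Itga4 and Itga11 were tested in fl/fl and Itgb3 and Itgb7 in ΔK14, none with a call.

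**Figure D4:**
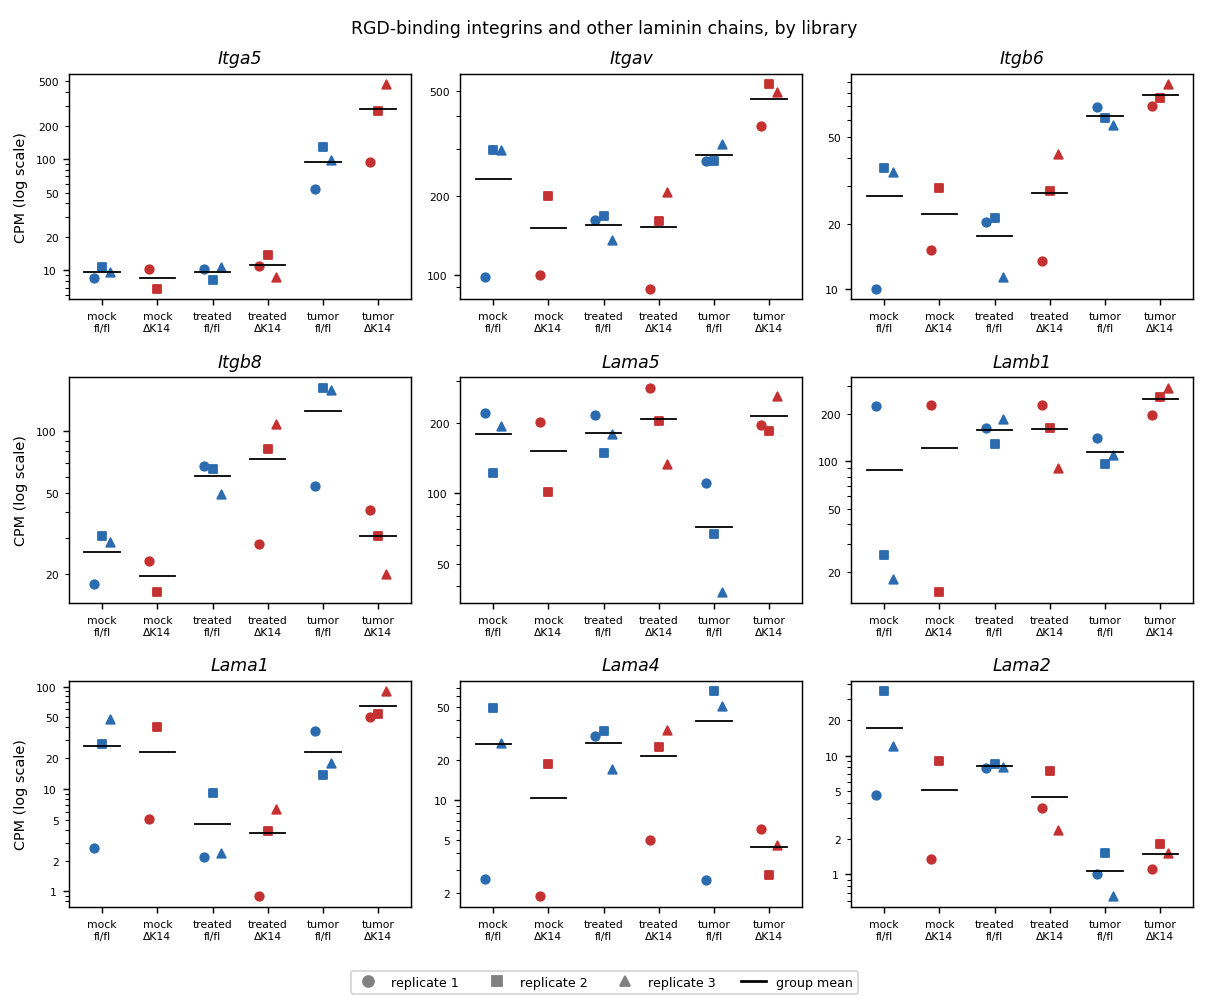
CPM (log scale) of RGD-binding integrins and further laminin chains in each library, with the black line at the group mean. Itga5 is at most 13.8 CPM in all skin libraries and at least 54.2 CPM in all tumors, Itgb8 and Lama4 are lower in ΔK14 tumors and in fl/fl tumor replicate 1 (blue circle) than in the other fl/fl tumors, and Lamb1 splits the mock libraries into replicate 1 at 222 and 226 CPM and the others at 14.8 to 25.7 CPM.

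The partners of these chains moved in both directions. Of 21 genes of the hemidesmosome and basement membrane, 11 of 21 tested were called in fl/fl (2 higher, 9 lower) and 8 of 18 in ΔK14 (3 higher, 5 lower), where 18% and 26% of all genes were called. Col7a1, the anchoring fibril collagen, rose in both (1.35 and 2.69, log2), and Nid1, which links laminin to collagen IV, rose in fl/fl by 2.87. Plec and Col17a1, structural proteins of hemidesmosomes, rose in ΔK14 by 1.25 and 2.09. Frem2 and Fras1, which form a complex of the epidermal basement membrane, fell in both (Frem2 by 3.26 and 4.19, Fras1 by 2.93 and 4.34), as did Col4a6 (by 1.72 and 2.68), and Hspg2, which encodes perlecan, fell by 1.82 in fl/fl. Of 20 integrin adaptor and signaling genes, 4 of 19 tested were called in fl/fl (3 higher, 1 lower) and 9 of 19 in ΔK14 (7 higher, 2 lower). Actn1, an actin crosslinker of adhesion sites, rose in both (1.37 and 2.09), as did Tns4 (1.44 and 2.09), Vcl rose in fl/fl (1.07), Parva and Tln1 rose in ΔK14 (1.77 and 1.45), Tns1 fell in both (by 1.93 and 1.30) and Tln2 fell in ΔK14 (by 1.80). Of 13 ligands other than laminins, 4 of 11 tested were called in fl/fl (2 higher, 2 lower) and 10 of 11 in ΔK14 (8 higher, 2 lower). Spp1, which encodes osteopontin, rose in both (6.10 and 5.32), Icam1, a ligand of leukocyte integrins, rose in both (1.56 and 1.03), Ltbp1 and Cyr61 rose in ΔK14 (4.30 and 2.03), and Ctgf fell in both (by 3.47 and 1.62). Against mock skin, tumors had calls for 2 of 18, 2 of 19 and 2 of 11 genes of the 3 lists in fl/fl and for 5 of 19, 6 of 19 and 4 of 11 in ΔK14, where 4.11% and 14.3% of all genes were called. Against treated skin, the median log2 difference of the 3 lists was -0.74, 0.45 and 0.40 in fl/fl and 0.38, 0.98 and 1.57 in ΔK14, and that of all genes tested was -0.02 and -0.03.

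The genotypes were compared within tumors to ask whether papilloma cells carry other levels of these chains when Zfp36 is deleted in keratinocytes. No member of the 24 tested was called by edgeR, where 0.0284% of 14067 genes tested were called (0.0213% higher, 0.00711% lower). An unadjusted p under 0.05 was found for 15 members and for 1975 of all 14067 genes, and DESeq2 called 6 members (2.88% of all genes). The 3 ΔK14 tumors all lay above the 3 fl/fl tumors for 15 of the 24 members, where 13.6% of all genes tested did so, and all lay below for 1, Itgb8, where 4.23% of genes did so. The median log2 difference of the 24 was 0.81, and that of all genes tested was -0.02. The differences nearest to a call were those of Itgb8 (-2.19 ± 0.46, edgeR adjusted p = 0.183), Lamc1 (0.85 ± 0.18, adjusted p = 0.183), Lamb1 (0.97 ± 0.23, adjusted p = 0.193), Lama3 (1.41 ± 0.34, adjusted p = 0.201) and Lama5 (1.45 ± 0.36, adjusted p = 0.209). For laminin-332 the differences were 1.41 (Lama3) and 1.57 (Lamb3), and for the basal integrins they ran from 0.75 (Itga6) to 1.82 (Itga3).

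The outcome differed without fl/fl tumor replicate 1, and also with other settings on all libraries, where DESeq2 called 6 members (2.88% of all genes) and edgeR without a low-count filter 14 (4.27% of all genes). Fl/fl tumor replicate 1 was closer to the ΔK14 tumors than the other 2 fl/fl tumors were for Itga3 (587 CPM, against 144 and 78.7), Itgb4 (998 CPM, against 266 and 244), Itgb1 (1140 CPM, against 525 and 465), Lama4 (2.51 CPM, against 65.4 and 50.8) and Itgb8 (53.7 CPM, against 164 and 160). That replicate was not the closest for every member, for example Itga5 (54.2 CPM, against 129 and 98.7), Itga2 (134 CPM, against 122 and 180) and Lamc1 (132 CPM, against 136 and 108). Without it edgeR called 12 members, where 16.9% of 15463 genes tested were called, 10 of them higher in ΔK14 tumors (among them Itga3, Itga6, Itgb1, Itgb4, Lama1, Lama3, Lama5, Lamb1 and Lamb3) and 2 lower (Itgb8 and Lama4). Without that library the log2 differences were 3.09 for Itga3, 2.37 for Itgb4, 1.66 for Itgb1, -2.52 for Itgb8 and -3.83 for Lama4. Leaving out any other tumor library gave no call among the members (0% to 0.0455% of all genes). The library also differed in depth and in basal keratins as given above. With all tumor libraries, Krt14 and Krt5 did not differ by a call between the genotypes (0.39 ± 0.50, edgeR adjusted p = 0.762, and 0.60 ± 0.55, adjusted p = 0.652). The other fl/fl tumors held 3870 and 4160 CPM of Krt14, below the 11000 to 11500 CPM of ΔK14 tumors. For Krt5 they held 2620 and 2810 CPM, below the 9010 to 10100 CPM of ΔK14 tumors. The part of these features in the result was not tested.

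**Figure D5:**
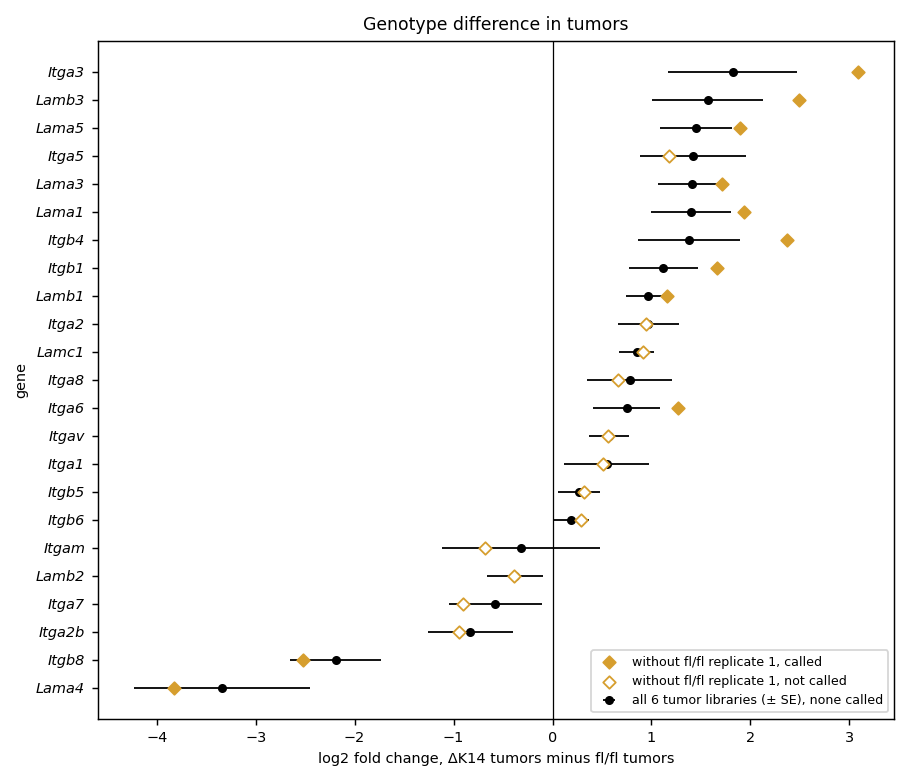
Log2 difference between ΔK14 and fl/fl tumors for members tested, with all 6 libraries (black, bars give the standard error) and without fl/fl tumor replicate 1 (yellow diamonds, filled where called). With all libraries none is called, and without that replicate the called values run from Lama4 at -3.83 to Itga3 at 3.09.

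The difference between genotypes in the tumor against treated skin change was tested directly. None of 32 members tested was called by edgeR, where 0.0118% of all genes were. An unadjusted p under 0.05 was found for 13 members and for 2243 of all 17017 genes, and DESeq2 called 1 member, Itgb8 (1.53% of all genes). The interaction was -2.37 ± 0.67 for Itgb8 (edgeR adjusted p = 0.208), 1.51 ± 0.43 for Lama3 (adjusted p = 0.208), 0.85 ± 0.25 for Lamc1 (adjusted p = 0.214) and 2.04 ± 0.71 for Itgb4 (adjusted p = 0.273). Calls in 1 genotype and not in the other, as for Itgb4, Itga3 and Lamb3, were therefore not shown to differ between genotypes by this test. Without fl/fl tumor replicate 1 the interaction was called for 8 members, where 7.53% of all 17951 genes were, 6 of them higher in ΔK14 (among them Itga3, Itgb1, Itgb4, Lama3 and Lama5) and 2 lower (Itgb8 and Lama4). With mock skin in place of treated skin, none of 31 members was called, where 0% of all genes were. Then 7 members and 1423 of all 17388 genes had an unadjusted p under 0.05, and DESeq2 called 1 member (0.213% of all genes).

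Against mock skin, 3 of 28 members tested were called in fl/fl tumors (4.11% of all genes tested; 2.22% higher, 1.88% lower) and 14 of 25 in ΔK14 tumors (14.3% of all genes tested, 7.05% higher and 7.22% lower). All tumors lay above all mock libraries for 7 of 28 members in fl/fl (15.5% of all genes) and for 16 of 25 in ΔK14 (28.6%), and below for 5 (16.9%) and 1 (24.3%). In fl/fl, Itga5 rose by 3.26 ± 0.38 (edgeR adjusted p = 0.00981) and Itgb8 by 2.28 ± 0.47 (adjusted p = 0.0444), from 17.9, 30.6 and 28.6 CPM in mock skin, and Lama2 fell by 3.90 (SE 0.84, adjusted p = 0.047), from 4.66, 34.6 and 12 CPM. In ΔK14 all 14 calls were higher in tumors, among them Itgb1 (3.02 ± 0.32, edgeR adjusted p = 0.00674; 175 and 213 CPM in mock skin) and Itga5 (4.91 ± 0.77, adjusted p = 0.0151; 10.3 and 6.85 CPM). Others were Itga1, Itga2, Itga3, Itga6, Itga7, Itga8, Itgav, Itgb4, Itgb6, Lama3 and Lamc1, from 1.54 to 2.97. Itga1 was at 7.58 and 5.05 CPM in ΔK14 mock skin and at 32.2, 23.4 and 22 CPM in ΔK14 tumors, but treated ΔK14 libraries held 9.51 to 20.3 CPM. With 2 mock ΔK14 libraries the ΔK14 count fell to 0 to 2 when 1 tumor library was left out (0.709% to 2.75% of all genes). It rose to 20 without mock ΔK14 replicate 1 (28.1% of all genes). In fl/fl the count was 7 without mock replicate 1 (21% of all genes) and 0 without mock replicate 2 or 3 (0.181% or 0.31% of all genes).

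Between treated and mock skin no member was called in fl/fl (30 tested) or in ΔK14 (28 tested), where 0% of all genes were called in both. In fl/fl 3 members and 913 of all 16601 genes had an unadjusted p under 0.05, and DESeq2 called 1 member (0.715% of all genes). In ΔK14 3 members and 763 of all 15891 genes had an unadjusted p under 0.05, and DESeq2 called 0 members (0.541% of all genes). All treated libraries lay above all mock libraries for 2 members in fl/fl (5.42% of all genes) and for 5 in ΔK14 (7.8%), and below for 1 (4.81%) and 0 (8.3%). Itgb8 was higher in every treated library than in every mock library of its genotype, at 49 to 67.5 CPM against 17.9 to 30.6 CPM in fl/fl (1.26 ± 0.26, edgeR adjusted p = 0.421) and at 28 to 109 CPM against 16.2 to 23 CPM in ΔK14 (1.89 ± 0.60, adjusted p = 0.861). Without mock fl/fl replicate 1, 11 members were called in fl/fl, where 15.1% of 17103 genes were, with Itgb8 and Lamb1 higher in treated skin and Itga2, Itga3, Itga6, Itgb4, Lama1, Lama2, Lama3 and Lamb3 among those lower.

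Between the genotypes of skin no member was called. In mock skin, 0 of 25 members tested passed (0% of all genes), and DESeq2 called 0 (0.0189% of all genes). An unadjusted p under 0.05 was found for 0 members and for 253 of all 15920 genes. Zfp36 itself was not called in mock skin, at -4.13 ± 0.87 (log2, SE), so this test can miss large differences. In treated skin 0 of 31 passed (0.00616% of all genes), and DESeq2 called 0 (0.222% of all genes). There an unadjusted p under 0.05 was found for 2 members and for 901 of all 16232 genes. In treated skin the log2 differences of the basal integrins ran from -0.60 to 0.15 and those of Lama3 and Lamb3 were -0.04 and -0.52. Itgb1 in treated skin differed by 0.06 ± 0.14 (edgeR adjusted p = 0.968). The members furthest from 0 there were low-level chains, Lamc3 at -1.42 and Itga4 at -1.31. All ΔK14 libraries lay below all fl/fl libraries for 3 members in mock skin (Itga1, Itgb5 and Lamc1; 5.58% of all genes) and for 3 in treated skin (Itga4, Lama2 and Lamc3; 5.93%), and above for 0 in both (6.97% and 5.77%). In mock skin the differences of Lama3 and Lamb3 were -0.70 and -0.89, with the split by replicate given above inside both genotypes. There the difference was positive for 2 of the 25 members (46.9% of all genes), with a median of -0.54 against -0.03. Replicate 1 weighs more in mock ΔK14 (n = 2) than in mock fl/fl (n = 3), and its part in these differences was not tested.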

How the data were processed

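RNA-Seq counts of 18 samples in 6 groups of 3 columns were used. The authors deposited raw counts per gene, not normalized, which the study made from Ovation SoLo libraries sequenced on an Illumina HiSeq. The submitters' notes list Trimmomatic 0.36, STAR 2.5.3, HTSeq 0.9.1 and DESeq2 with build mm10, with no role or order. Use of strand is not given in the sources used here, so overlapping and antisense genes are uncertain. The identical columns of mock ΔK14 were counted once.

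The tests used edgeR 4.0.16 in R 4.3.3 (quasi-likelihood, two-sided, filterByExpr defaults, TMM, Benjamini-Hochberg adjustment over all genes tested), using the libraries of the groups compared. Calls needed a fold change over 2 besides an adjusted p below 0.05. CPM used TMM factors over 17 libraries, and exon lengths came from GENCODE M21. Totals of 2808550 to 9617985 put 3 counts at 0.29 to 1.51 CPM. PCR duplicates make counting intervals cover counting error only. Scripts were tested on simulated data. Alternatives were DESeq2 1.42.0, RLE scaling, no low-count filter, 1 fit of all libraries, a replicate block, the identical columns counted separately, and each library left out. Leaving out mock replicate 1 of both genotypes was added after seeing the data. Counts and medians cover all members, and 1 member is not reported here. Values per library are given for the other basal chains and other members called in any comparison. Members, gene lists and tests were chosen with earlier results of these data known. Partner genes named are called genes with the smallest p, up to 3 in each direction; Fras1, Tns4 and Icam1 were also given in the genotype where that rule did not name them.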

Additional observations from a re-analysis of the deposited data

How the results depend on the processing

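Between the genotypes of tumors no member was called (0.0284% of all genes). DESeq2 called 6 (2.88%), the fit without a low-count filter 14 (4.27%), and leaving out single libraries gave 0 to 12 (0% to 16.9%). Between treated and mock skin, where none was called, DESeq2 called 1 in fl/fl (0.715%) and the fit without a filter 2 in ΔK14 (0.654%). Leaving out single libraries gave 0 to 11 in fl/fl (0% to 15.1%). For tumors against mock skin in fl/fl (3 called, 4.11%), DESeq2 called 7 (14.4%), the fit without a filter 7 (7.64%) and 1 fit of all libraries 8 (17.6%). Leaving out single libraries gave 0 to 7 (0.181% to 21%). In ΔK14 (14 called, 14.3%), leaving out single libraries gave 0 to 20 (0.709% to 28.1%). For tumors against treated skin (12 called in fl/fl, 18%, and 20 in ΔK14, 26%), it gave 6 to 15 (7.21% to 24.3%) and 15 to 20 (17.5% to 29.2%). For the difference between genotypes in the tumor change (0 called), DESeq2 called 1 against mock (0.213%) and 1 against treated skin (1.53%). The fit without a filter called 5 (0.522%) and 12 (2.76%), and leaving out single libraries gave 0 to 8 (0% to 7.53%) against treated skin. The causes of these shifts were not tested. RLE scaling and counting the identical columns separately kept every count within 1.5 times.

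Same-numbered libraries did not deviate together in most comparisons, so replicate numbers were not taken as pairs. The 3 correlations between genotypes of treated skin ran from -0.55 to -0.12. Same-numbered libraries did deviate together between the genotypes of mock skin (0.57 and 0.78) and between treated and mock skin in ΔK14 (0.14 and 0.57). Some libraries with different numbers did so too. Mock ΔK14 replicate 2 went with mock fl/fl replicate 3 (0.72) and with treated ΔK14 replicate 3 (0.46). The deviations of the mock ΔK14 libraries mirror each other, so these values do not show pairing by number. Treated ΔK14 replicate 1 also deviated together with mock fl/fl replicate 1 (0.66). With the replicate block, 1 member was called between the genotypes of mock skin (0.691% of all genes) and 1 between treated and mock skin in ΔK14 (0.271%). For tumors against mock skin it called 1 in fl/fl (1.59%) and 9 in ΔK14 (6.24%). For tumors against treated skin it called 10 in fl/fl (11.9%) and 16 in ΔK14 (25.4%). For single members over all alternatives, 110 values gained a call, 109 lost one and 0 reversed. Leaving mock replicate 1 out of both genotypes was added once the data had been seen. It gave 0 member calls between the genotypes of mock skin (0.00622% of all genes). It also gave 0 for the difference in the tumor change against mock skin (0%). Depth limits statements on Itgb2, Itgal and Itgax, with at most 7 counts in a library.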
